A study of Mus musculus with 4 samples.

Results

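The chromatin around Tcf4 was described in mouse classical dendritic cells type 1 (cDC1) and plasmacytoid dendritic cells (pDC). Every open interval and every footprint that overlapped a window of 700 kb on mouse chromosome 18 was taken, from 69.30 to 70.00 Mb in build mm9. The rule went by position and used no measured value, but the window was chosen with earlier results of these data known. The authors had named Tcf4 as the most prominent pDC factor, by footprints at its binding sites in these data. The window held 44 of the 83701 intervals listed for cDC1 and 26 of the 51941 listed for pDC. It also held 226 of 513689 footprints in cDC1 and 130 of 312959 in pDC. Intervals of both cell types that overlapped by at least 1 bp were joined, which gave 53 regions of the 93615 in the genome. Of these 53 regions, 17 were open in both cell types, 27 were listed in cDC1 only and 9 were listed in pDC only.

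Both cell types were grown in culture from mouse bone marrow, which was expanded with cytokines and then driven towards dendritic cells with Flt3 ligand, with no other treatment named. The cells were sorted by surface proteins, CD11c+ CD11b+ XCR1+ for cDC1 and CD11c+ CD11b- B220+ for pDC, and accessible DNA was tagged with the transposase Tn5 by Omni-ATAC-seq, a variant of ATAC-seq that lowers the mitochondrial background. There were 2 replicates per cell type, which the authors merged into 1 list of each kind. The labels and methods name no strain, age or sex of the animals, and no origin of the replicates. No spread between replicates can be had from merged lists, so no p-value is given, and all intervals printed here are 95% intervals that cover counting error only.

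Tcf4, also called E2-2, is an E protein, a transcription factor of the basic helix-loop-helix class that binds E-box motifs as a dimer. It is required for the development of pDC and for keeping their identity, and loss of Tcf4 shifts pDC towards a cDC-like state. The gene is long, is read from several promoters that give long and short protein isoforms, and a regulatory element far downstream of the gene has been described in pDC. Id2, the inhibitor of E proteins, is active in cDC1. ATAC-seq reads openness and not expression, so the level of Tcf4 RNA was not measured here.

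Positions are given as the distance of a region's midpoint from the start of the stretch of Tcf4, which runs from about 69.50 to 69.85 Mb on the plus strand. These bounds are approximate and no mm9 annotation was used here, so regions were not assigned to exons, introns or promoters. In the RefSeq gene order, the protein-coding neighbours are Mc2r on the side before Tcf4 and Ccdc68 and then Rab27b on the side after it. The 200 kb before the stretch are called upstream and the 150 kb after it downstream, whatever genes lie there.

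The lists differ in depth, which bears on every comparison below. The peak caller MACS2 tests the pileup of tags at a summit against a background that is never below the genome's mean, and both numbers could be solved from the listed fold enrichment and p-value. The genome background was 12.011 tags in cDC1 and 6.879 in pDC, so the cDC1 library held 1.75 times as many tags. Over the 40721 regions of the genome open in both cell types, the median of the ratio of cDC1 to pDC pileup was 3.14. All pileup ratios below were divided by this median unless stated otherwise, so a log2 ratio of 0 stands for the typical shared region of the genome. Dividing by the background ratio in its place lowers every pileup log2 ratio by 0.85, and the cause of the gap between these scalings was not tested.

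**Figure D1:**
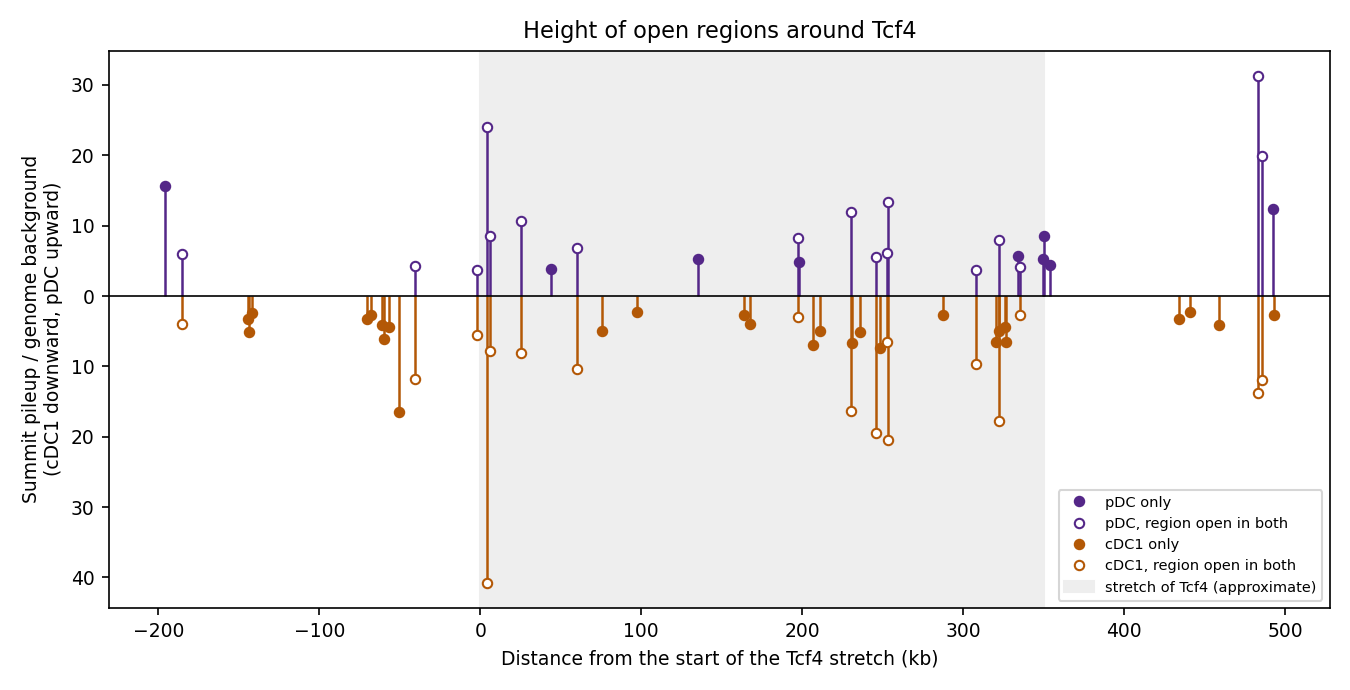
Summit pileup over the genome background of the same library (vertical axis, ratio, pDC drawn upward and cDC1 downward) of each region by distance from the start of the Tcf4 stretch (kb, horizontal axis), with filled marks for regions listed in 1 cell type only, open marks for regions open in both and the stretch of Tcf4 in grey. The highest mark of cDC1 is at +4.03 kb, 40.7 times its genome background, and that of pDC at +483 kb, 31.3 times its own.

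The Tcf4 window was open in both cell types, with its highest summit near the start of the gene in cDC1 and far downstream of the gene in pDC. The highest cDC1 summit lay at +4.03 kb (chr18:69503615-69504439) with a pileup of 489 tags. The highest pDC summit lay at +483 kb (chr18:69982749-69983404) with 215 tags. The stretch of Tcf4 held 12 regions open in both cell types, 6 listed in pDC only and 14 listed in cDC1 only. The upstream side held 3, 1 and 9 of these classes and the downstream side 2, 2 and 4. Downstream was thus the side with the fewest regions, and upstream the side with the smallest share of regions listed in pDC.

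Of the 26 pDC intervals, 9 had no counterpart in cDC1, a share of 34.6% (Wilson interval 19.4% to 53.8%), against 19.7% over the genome. Of the 44 cDC1 intervals, 27 had none in pDC, a share of 61.4% (46.6% to 74.3%), against 50.9% over the genome. Both shares were higher in the window than over the genome, but each Wilson interval includes the genome's share. This holds for the lists as deposited. With lists of equal length the pDC-only share was 53.8% (35.5% to 71.2%), against 32.9% over the genome, which lies outside the interval. Intervals covered 18292 bp in cDC1 and 11677 bp in pDC, and the ratio of 0.638 lay near the ratio of 0.612 over the genome. With the cDC1 list shortened to its strongest intervals, as many as in pDC, the ratio was 1.03 in the window and 0.805 over the genome, so its level depends on how long the lists are.

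The sides of the gene differed in this ratio. Upstream, pDC intervals covered 0.445 times as many bases as cDC1 intervals, in the stretch of Tcf4 0.639 times, and downstream 1.07 times, with the interval across the end of the gene counted to the gene. Downstream, this was 2152 bp in pDC against 2009 bp in cDC1, from 4 and 6 intervals. Upstream, it was 2008 bp against 4512 bp, from 4 and 12 intervals. No interval was computed for the ratios of the sides. The longest stretch without a pDC region ran over 144 kb of the upstream side (chr18:69315281-69459267) and held 9 cDC1 regions. Divided by 3.14, only the pileup of the region at -50.2 kb, 63.0 tags, exceeds the lowest pDC pileup of the window, 25. The others come to 9.23 to 23.2 tags, or 16.6 to 41.8 by the background ratio, so depth limits what this gap can show.

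The region at +4.03 kb carried the highest pileup of the window in cDC1 and the second highest in pDC, 489 against 165 tags. Its −log10 q was 372 in cDC1 and 72.4 in pDC, higher than 95.5% and 89.6% of all listed intervals. The scaled pileup log2 ratio was 0.08, near that of a typical shared region. Its best pair of footprints held 817 tags in cDC1 and 308 in pDC, a scaled ratio of 1.24 (exact interval 1.08 to 1.41). A weaker neighbour at +6.18 kb (chr18:69505868-69506494) had 94 tags in cDC1 and 59 in pDC and a scaled pileup log2 ratio of 0.98. The region nearest to the start on its other side, at -2.22 kb (chr18:69497588-69497980), had 67 and 25 tags and a ratio of 0.23. The start of Tcf4 was open in both cell types. Scaled by the genome background, the pileup log2 ratios of these regions were -0.76, 0.13 and -0.62, so their direction depends on the scaling.

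Of the shared regions at least 2-fold higher in pDC after scaling, the pair far downstream of Tcf4 had the highest pileups. At +483 kb the unscaled pileup was 165 tags in cDC1 and 215 in pDC, although the cDC1 library was deeper. Its −log10 q in pDC was 127, higher than 97.4% of all pDC intervals, while that in cDC1 was 93.1, higher than 73.0%. At +486 kb (chr18:69985559-69986090) the pileup was 144 tags in cDC1 and 137 in pDC. The scaled pileup ratios were 4.10 (3.33 to 5.05) and 2.99 (2.35 to 3.80), and the footprint tags gave 4.41 (3.84 to 5.09) and 3.44 (2.89 to 4.08). Scaled by the genome background, the pileup log2 ratios were 1.19 and 0.73, so pDC was also higher there per tag in the library.

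A further region of the same group was listed in pDC only. It lay at +492 kb (chr18:69991930-69992685) with a pileup of 85 tags and a −log10 q of 44.1, higher than 79.7% of pDC intervals. A cDC1 region listed just after it, at +493 kb, had 33 tags and did not overlap it. The 3 pDC regions spanned 9937 bp and began 133 kb past the end of the stretch of Tcf4. Which gene they act on was not measured, and whether they match the regulatory element described in pDC was not tested.

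Within the stretch of Tcf4, 3 shared regions leaned to pDC by at least 2-fold in footprint tags. The region at +197 kb (chr18:69697029-69697414) had 35 tags at the summit in cDC1 and 57 in pDC, and its paired footprints had 72 and 124 tags. This was a scaled tag ratio of 5.64 (4.19 to 7.65), the highest of the window and above those of the downstream pair. Its pileup log2 ratio scaled by the genome background, 1.51, was also above theirs. A pDC-only region of 33 tags lay just past its end, at +198 kb. The region at +25.3 kb (chr18:69525033-69525512) had 98 and 73 tags and a scaled tag ratio of 2.77 (2.25 to 3.39). The region at +335 kb (chr18:69835071-69835388) had 32 and 28 tags and a scaled tag ratio of 2.65 (1.82 to 3.84), and both of its summits were among the weakest listed in the window.

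Fewer regions leaned to cDC1, and by smaller ratios, when scaled by the genome's median ratio. At +246 kb (chr18:69745623-69746119) the pileup was 234 tags in cDC1 and 38 in pDC, and the footprint tags of 453 and 67 gave a scaled ratio of cDC1 over pDC of 2.06 (1.59 to 2.71). By pileup this ratio was 1.96 (1.39 to 2.84), just short of 2-fold. At -40.5 kb (chr18:69459268-69459778) the pileup was 142 and 29 tags and the scaled tag ratio of cDC1 over pDC was 1.57 (1.17 to 2.13). The regions at +308 kb (chr18:69807343-69807908) and +322 kb (chr18:69821706-69822227) followed with 1.17 (0.879 to 1.57) and 1.06 (0.843 to 1.33), and both of these intervals include 1. The region at -2.22 kb was next in this order, with a tag ratio of cDC1 over pDC of 0.885 (0.638 to 1.25) that does not lean to cDC1. These tag ratios use the pair with the most tags in a region. At +322 kb the other pair leaned to pDC, with 72 tags in cDC1, 65 in pDC and a scaled log2 ratio of 1.56.

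**Figure D2:**
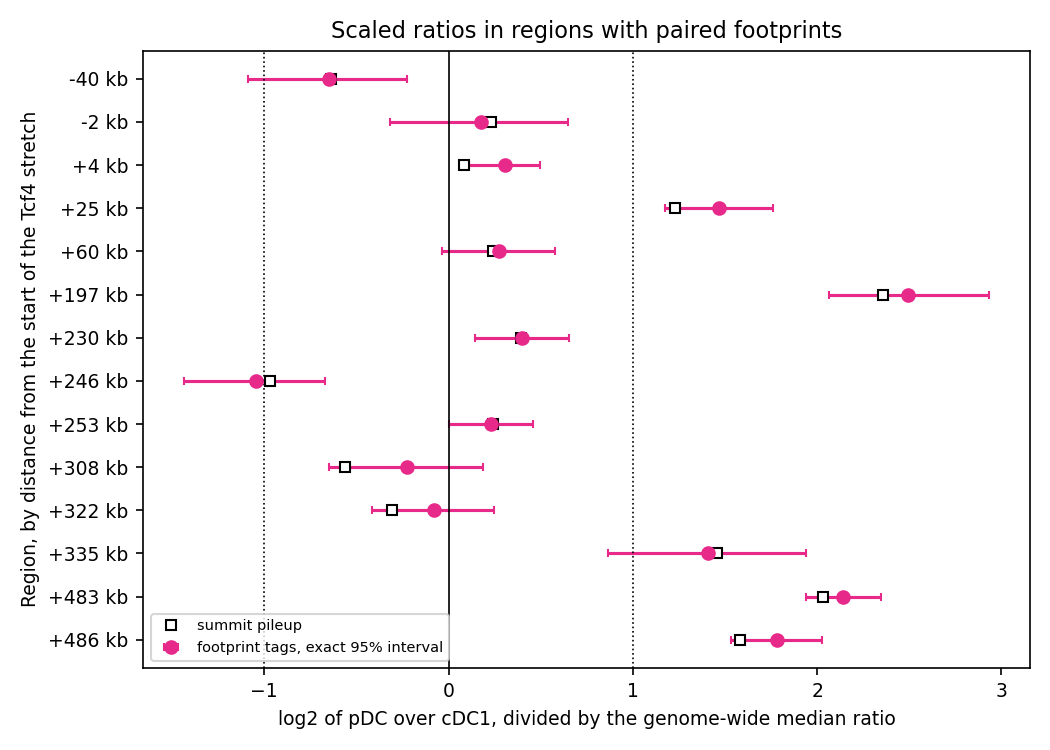
Scaled ratio of pDC over cDC1 on a log2 scale (horizontal axis) in the 14 regions with paired footprints, ordered by distance from the start of the Tcf4 stretch, with filled points for footprint tags, bars for exact 95% intervals and open squares for summit pileup. Points at +25, +197, +335, +483 and +486 kb lie past 1 and the point at +246 kb lies past -1.

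Counted over the window, 14 of the 17 shared regions had footprints that could be paired, and 5 of them were at least 2-fold higher in pDC, against 12.6% of such regions over the genome. In the other direction 1 was at least 2-fold higher in cDC1, against 8.93% over the genome. The median scaled tag log2 ratio was 0.29 (interval of the median -0.22 to 1.78), with 10 of 14 above 0, so the median itself was not separated from 0. By summit pileup, 6 of 17 shared regions were at least 2-fold higher in pDC, against 13.8% over the genome, and 0 were so in cDC1, against 9.44%. The extra region by pileup was at -185 kb (chr18:69314454-69315280), with 48 tags in cDC1 and 41 in pDC and no paired footprints. Tags and pileup fell on the same side of 0 in all 14 regions, and differed by at most 0.34 on the log2 scale. Scaled by the genome background, 2 of 17 were at least 2-fold higher in pDC and 4 in cDC1 by pileup, while the 5 regions past 2-fold by tags kept pileup log2 ratios above 0, from 0.38 to 1.51. By that scaling 7 of 17 were above 0, against 16.9% over the genome.

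Height bears on these counts, because a weak cDC1 region enters the comparison when its pDC counterpart was strong enough to be listed. With a limit of 100 tags chosen after the values were seen, 4 of the 7 shared regions with a lower cDC1 pileup were at least 2-fold higher in pDC by pileup, against 36.8% over the genome. Of the 10 with a cDC1 pileup of at least 100, 2 were, against 3.6% over the genome, and these were the downstream pair at +483 and +486 kb. The split uses the pileup that is also the denominator of the ratio, and the region at +25.3 kb, with 98 tags, lies just under the limit. Without any scaling, the pDC pileup was the higher one in 2 of 17 shared regions, at +197 and +483 kb, against 5.15% over the genome.

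**Figure D3:**
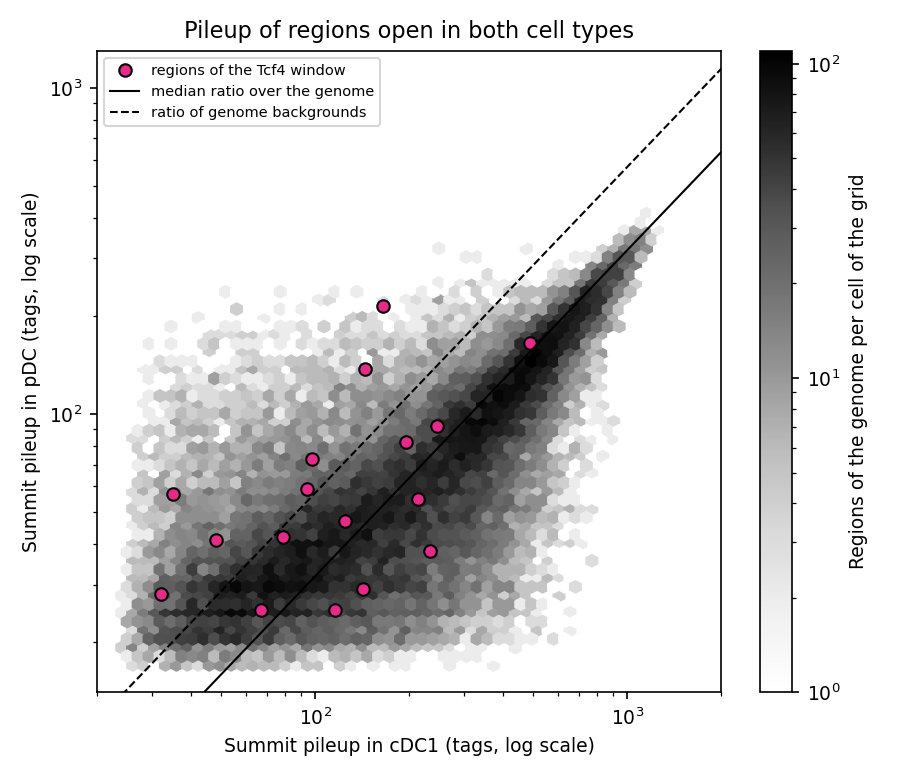
Unscaled summit pileup in tags (log axes) in cDC1 (horizontal) and pDC (vertical) for the 17 shared regions around Tcf4 (points) over all 40721 shared regions of the genome (grey, darker where more regions fall), with a solid line at the genome-wide median ratio and a dashed line at the ratio of genome backgrounds. The points at 165 and 215 tags (+483 kb), 144 and 137 tags (+486 kb) and 35 and 57 tags (+197 kb) lie far above both lines.

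The remaining shared regions in the stretch of Tcf4 were less than 2-fold from the genome's typical ratio. At +60.2 kb (chr18:69559682-69560639) the pileup was 125 tags in cDC1 and 47 in pDC, with a scaled pileup log2 ratio of 0.24. At +230 kb (chr18:69729888-69730531) it was 196 and 82 tags, with 0.39. The neighbours at +252 kb (chr18:69752025-69752662) and +253 kb (chr18:69752758-69753373) had 79 and 42 tags and 245 and 92 tags, with 0.74 and 0.24. Scaled by the genome background, these 4 log2 ratios were between -0.61 and -0.11. The region at +253 kb was the second highest of the window in cDC1, and a cDC1 region at +248 kb with 89 tags, not listed in pDC, lay between it and the region at +246 kb.

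The 9 regions listed in pDC only fell into an isolated strong one upstream, the downstream one at +492 kb and 7 weaker ones in or just past the gene. The strongest lay at -196 kb (chr18:69303577-69304325), with a pileup of 108 tags and a −log10 q of 65.5, higher than 87.8% of pDC intervals. Its 4 footprints held 74 to 210 tags. At the end of the stretch of Tcf4, 3 pDC-only regions followed one another at +349 kb (chr18:69849322-69849536), +350 kb (chr18:69849758-69850122) and +354 kb (chr18:69853720-69853979) with 36, 59 and 30 tags. No cDC1 region was listed beside them, and the one at +350 kb carried 9 footprints of 53 to 137 tags. The other 4 had 26 tags at +44.2 kb (chr18:69544100-69544394), 36 at +136 kb (chr18:69635386-69635733), 33 at +198 kb (chr18:69697687-69697925) and 39 at +334 kb (chr18:69833922-69834325).

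The weakest of these pDC-only regions stood near the list's threshold. The −log10 q was 1.34 at +354 kb and 1.96 at +349 kb, against 11.5 at +350 kb. It was 3.44 at +44.2 kb, 3.68 at +198 kb, 6.21 at +334 kb and 8.17 at +136 kb. No footprint was listed in the regions at +136 and +349 kb. Multiplied by 3.14, the 9 pDC pileups came to 81.7 to 339 tags, and by the background ratio of 1.75 to 45.4 to 189 tags. All exceed the lowest cDC1 pileup listed in the window, 27 tags, but any pDC pileup listed there would, the lowest being 25. Those 27 tags stood at the genome background. The cDC1-only regions at +326 and +322 kb, at 2.05 and 2.30 times that background, had 53 and 60 tags. Whether each pDC-only region would have been listed in cDC1 was therefore not settled.

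For the regions listed in cDC1 only, the answer to the reverse question depended on the scaling. Their pileups ran from 27 to 198 tags with a median of 53. Divided by 3.14, 6 of the 27 reach the lowest pDC pileup listed in the window, 25 tags, and 21 do not. Divided by the background ratio of 1.75, 17 reach it and 10 do not. Between 10 and 21 of these regions thus fell below the lowest pDC pileup of the window. That floor is not the limit of detection, since the lowest pDC pileup listed over the genome was 17 tags. Fewer of the regions fall below 17. For the lowest regions, absence from the pDC list does not show a difference, but how many these are was not settled.

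The strongest cDC1-only region lay at -50.2 kb (chr18:69449540-69450008), with 198 tags, a −log10 q of 158 that was higher than 82.5% of cDC1 intervals, and 10 footprints of 31 to 526 tags. It was the only cDC1-only region with a pileup of at least 100 tags. The next by −log10 q were at +207 kb (chr18:69706562-69707031) with 83 tags and at -59.8 kb (chr18:69440009-69440397) with 73. The regions at +231 kb (chr18:69730636-69731049) and -143 kb (chr18:69356338-69356814) had 80 and 62 tags. The region at +75.6 kb (chr18:69575199-69576096) had 60 tags and the most footprints of any region in cDC1, 20. The 21 others had pileups of 27 to 89 tags and −log10 q values of 2.42 to 21.5, and 1 of them, at +288 kb, had no footprint.

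Footprints are short stretches of few Tn5 cuts between flanks of many cuts, as a bound protein leaves them, and were called by HINT-ATAC. Around Tcf4 there were 5.14 footprints per interval in cDC1 and 5.00 in pDC, and they took up 25.4% and 26.3% of the interval bases. A footprint was counted as shared if a single footprint of the other cell type covered at least 50% of it. By this rule 38 of 130 pDC footprints were shared, 29.2% (22.1% to 37.6%), against 40.7% over the genome. In cDC1, 43 of 226 were shared, 19.0% (14.4% to 24.6%), against 26.9% over the genome. Both shares lay below the genome's, which fell outside these Wilson intervals. The Wilson intervals count each footprint as independent, although the footprints lie in only 26 pDC and 44 cDC1 intervals. They are therefore too narrow to show that the shares differ from the genome's. Among footprints with at least the list's median tag count, the shares were 42.6% (31.0% to 55.1%) in pDC and 39.1% (28.1% to 51.3%) in cDC1, against 49.5% and 32.4% over the genome. In pDC the share was still below the genome's and in cDC1 it was above, and both intervals include the genome's share.

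The lower shares were not seen where both cell types were open. Within regions open in the other cell type as well, 46.9% of the 81 pDC footprints and 50.6% of the 85 cDC1 footprints were shared, against 50.3% and 50.2% over the genome. The region with the most pDC footprints was at +322 kb, with 12 in pDC and 8 in cDC1, of which 4 and 5 were shared. At +483 kb, 5 of 6 pDC footprints and all 4 cDC1 footprints were shared, although the heights differed. At +486 kb, 1 of 5 pDC and 2 of 3 cDC1 footprints were shared.

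The cell types also differed in the signal around their summits. MACS2 takes as local background the tags in the surroundings of a summit where these are denser than the genome mean, and a peak's own tags and those of its neighbours are part of it. In pDC, 27 of the 29 summits of the window had a local background above the genome background, 93.1% (78.0% to 98.1%), against 82.2% over the genome. In cDC1, 19 of 46 did, 41.3% (28.3% to 55.7%), against 73.7% over the genome. The interval of pDC includes the genome's share and that of cDC1 lies below it. These intervals count each summit as independent, although neighbouring summits can share their surroundings. In pDC, for example, the summits at +483 and +486 kb had the same local background. The intervals are therefore too narrow to show that a share differs from the genome's. In the stretch of Tcf4 this held for 20 of 20 pDC summits, at a median of 2.03 times the genome background, and for 16 of 28 cDC1 summits, at a median of 1.42 times.

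Strong peaks raise their own surroundings, so the weak summits were also taken alone, those under 6 times the genome background, a limit chosen after the values were seen. In pDC 12 of 14 such summits had a local background above the genome background, 85.7% (60.1% to 96.0%), against 63.1% over the genome. In cDC1 3 of 25 did, 12% (4.17% to 29.96%), against 45.5%, and here too only the cDC1 interval left out the genome's share. These intervals also count neighbouring summits as independent, so they are too narrow to show a difference. In the 17 regions open in both cell types, the local background, each over the library's own genome background, was higher in pDC in 14, against 23% over the genome. The median ratio of pDC over cDC1 was 1.38 in these regions and 0.824 over the genome. The exceptions were at -40.5 and -2.22 kb, where both cell types were at the genome background, and at +246 kb, where it was 1.58 times the genome background in pDC and 1.78 times in cDC1.

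The local background in pDC was highest at the start of the gene and at the downstream pair. It was 3.69 times the genome background in pDC and 2.78 times in cDC1 at +4.03 kb, and 3.22 and 1.54 times at +483 kb. At +197 kb it was 1.96 times in pDC, while cDC1 was at its genome background. In the 100 kb added on each side of the window, the 6 further pDC summits were at the genome background, which brought the share to 27 of 35. Where the extra tags lie between the summits was not analysed here, because the lists hold no signal outside intervals.

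**Figure D4:**
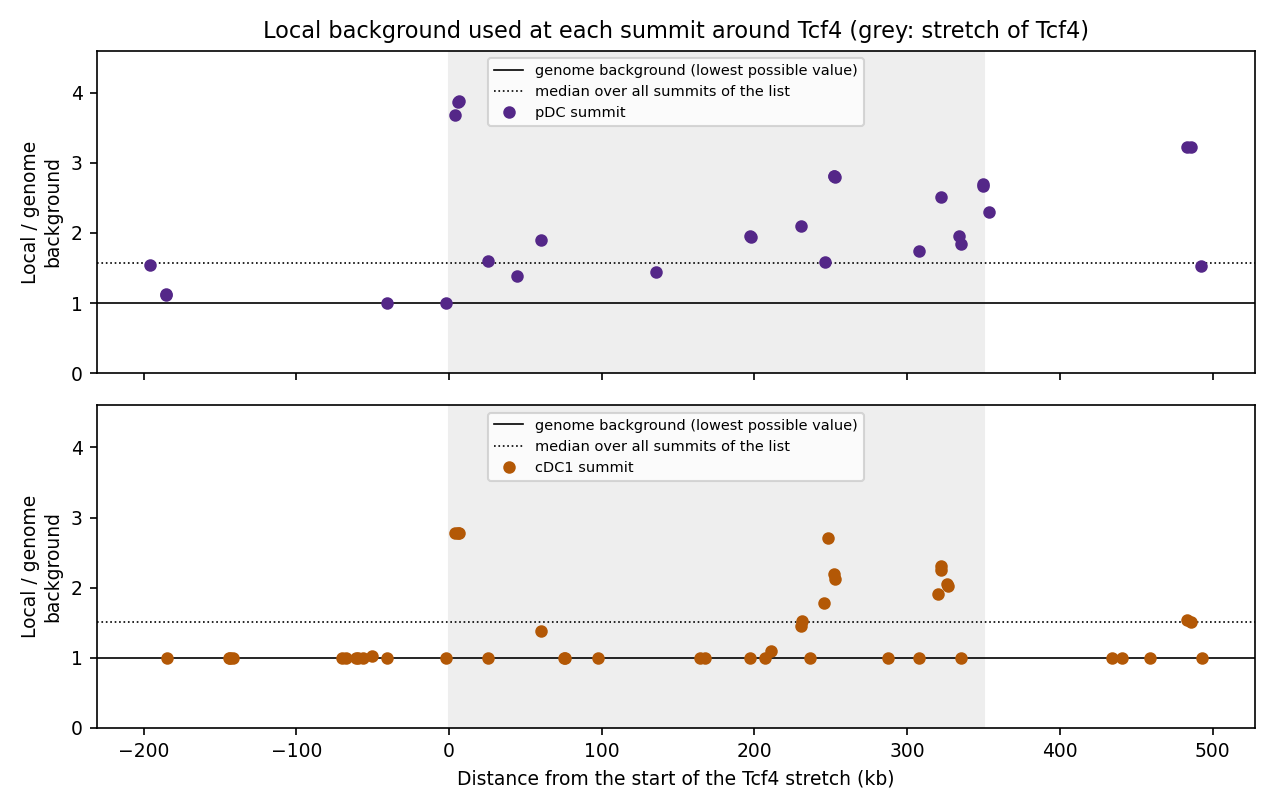
Local background over the genome background of the same library (vertical axis, ratio) at each summit by distance from the start of the Tcf4 stretch (kb, horizontal axis), with pDC above and cDC1 below, the solid line at the genome background and the dotted line at the median over all summits of the list. All 20 pDC summits in the grey stretch of Tcf4 lie above the solid line, and 16 of 28 cDC1 summits do.

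The sorting of each cell type was not checked against marker loci, since no mm9 annotation was used here. Over each library's own genome background, the summit at +4.03 kb was 40.7 times in cDC1 and 23.99 times in pDC. This gap was near that of a typical shared region, with a scaled pileup log2 ratio of 0.08. By the same measure 10 of the 17 shared regions were higher in cDC1 and 7 in pDC, against 16.9% higher in pDC over the genome. The cDC1-only region at -50.2 kb, scaled to the pDC list, would have a pileup of 63.0 tags by the median ratio or 113 by the background ratio, and pDC listed no interval there.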

How the data were processed

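Omni-ATAC-seq lists of cDC1 and pDC were used, 2 replicates per cell type merged by the authors into 1 list. The dendritic-cell methods and the processing notes name Trim Galore, Bowtie2 on mm9, SAMtools and MACS2; the general methods name another build, and no versions are stated. The deposited peak lists hold MACS2's score, its fold enrichment (a ratio over background) and its −log10 p-value and −log10 q-value per summit. The deposited footprint lists give a tag count per HINT-ATAC footprint, taken as unscaled because the values are whole numbers; the window of counting is not given.

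Lines sharing both ends were counted as 1 interval, with its highest pileup and the −log10 q and background of the summit with the largest −log10 q. Pileup and background were solved per line from fold enrichment and −log10 p; within 0.01 of a whole number they gave whole pileups in 94210 of 94222 cDC1 and 59937 of 59941 pDC lines. The methods name a fixed background, while the solved backgrounds took many values. Footprints of both lists were paired where they shared at least 50% of their bases; the tags of the pair with the most tags were compared per region, and tag ratios were divided by the median ratio of 3.28 over 91319 pairs. Ratios carry exact and shares Wilson intervals at 95%. PCR reads carry no molecular identifiers, so these intervals cover counting error only. Named were the 5 shared regions highest in −log10 q in pDC, up to 10 pDC-only and 5 cDC1-only regions by −log10 q, the 5 shared regions leaning most each way, and the region with the most footprints per cell type; the other shared regions were added after their values were seen. The window and lists were chosen with earlier results of these data known. Steps were tested on simulated data in Python 3.11.15 with numpy 2.4.6, pandas 2.3.3 and scipy 1.17.1. Overlap rules, list lengths, scalings, fold limits and window bounds were varied.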

Additional observations from a re-analysis of the deposited data

How the results depend on the processing

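Of 60 alternative values, 37 stayed near the reported one; 14 of the 60 belong to choices made after seeing the data. With lists of equal length, the pDC-only share of pDC intervals was 53.8% (35.5% to 71.2%), against 32.9% over the genome, which the interval left out. The cDC1-only share of cDC1 intervals was 42.9% (24.5% to 63.5%), against 34.5%, and the ratio of covered bases was 1.03. Shared pDC footprints were 37.7% at 1 bp, 19.2% at 80% of bases and 42.6% among footprints with at least the median tag count, and shared cDC1 footprints 12.8% at 80% and 39.1% among those with at least the median. Over the genome, these were 51.9%, 28.2% and 49.5% in pDC and 19.3% and 32.4% in cDC1. The count of regions at least 2-fold higher in pDC, 5 as reported, was 3 in the gene stretch alone, 3 at a 3-fold limit, and 2 with the genome background as scaling, by tags or by pileup. The count higher in cDC1, 1 as reported, was 0 with summed tags as scaling, 0 with pairs sharing 80%, 2 at 1.5-fold, 0 at 3-fold, 0 by pileup, 3 with the genome background and 4 with pileup and genome background. The median log2 ratio turned negative with the genome background, to -0.62 by tags and -0.45 by pileup, against -0.85 by pileup over the genome; this scaling lowers every ratio by construction. The share of pDC summits with a local background above the genome's was 100% in the gene stretch and 77.1% in the window widened by 100 kb. Depth limits what absence from the pDC list can show. No paired analysis was possible because replicates are merged in every list, and leaving out a replicate was not run for the same reason.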

Other observations

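Among 2991 non-overlapping stretches of the genome of the same length with at least 1 listed interval, 303, or 10.1%, held at least as many pDC-only intervals as the 9 around Tcf4, with a median of 2. For cDC1-only intervals 16.8% held at least as many as the 27 around Tcf4, with a median of 12. For all intervals the shares were 26.8% in pDC and 24.4% in cDC1, and for footprints 33.2% and 31.1%. The window around Tcf4 was therefore denser in open regions than most stretches in both cell types.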
